A study of Mus musculus with 9 samples.

Results

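The relaxin family of peptides and receptors was followed in mouse ovaries on 3 consecutive days, PD14, PD15 and PD16 (postnatal days 14, 15 and 16). The genes were Rln1, Rln3, Insl3, Insl6, Rxfp1 and Rxfp2, that is 6 of the 52025 genes in the tables. They were selected by gene name within the family, with earlier values of these 9 libraries known. No threshold on those values is recorded, so the day-to-day values of the 6 genes are given as a description, without a p-value. The other 3 family genes, Insl5, Rxfp3 and Rxfp4, were read beside them.

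Each day had 3 libraries, and all 9 were made from total RNA of Kunming mice, an outbred stock, with no treatment or transgene. The study describes whole ovaries, and the labels list ovary as tissue but name granulosa cells, the somatic cells around the oocyte, as the source. Markers of several cell types were present in all 9 libraries. Summed FPKM ran from 2979 to 3854 for 12 granulosa cell markers, from 1466 to 2595 for 14 theca and interstitial markers and from 1082 to 1585 for 12 oocyte markers, and no listed marker was at 0 in every library. The libraries are therefore called ovaries here. FPKM, mapped fragments scaled to transcript length and to library depth, allows levels of different genes to be compared per length. The depth inferred from the step of 1 fragment in the FPKM was 20.4 to 28.7 M fragments per library. Whether these are all mapped fragments or those assigned to genes is not stated. In bulk samples, fewer cells of a type and less RNA per cell cannot be told apart. The study states for this RNA-seq that n = 3 ovaries were biologically independent. Nothing in the labels assigns the libraries of a day to separate animals, so p-values measure only the spread between these samples.

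Relaxin family peptides resemble insulin: each is made as a prohormone and cut into an A and a B chain held together by disulfide bonds. Rxfp1 and Rxfp2 encode receptors with a large leucine-rich repeat domain that raise cyclic AMP, and they are the receptors for relaxin and for insulin-like peptide 3. The relaxin-3 receptor Rxfp3 and the Insl5 receptor Rxfp4 lower cyclic AMP instead. In the ovary the family is best known for relaxin from the corpus luteum of pregnancy and for Insl3 from theca cells.

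In these ovaries the ligand genes Rln3, Insl3 and Insl6 were measured in every library, and the 2 receptor genes of the set stood far below them. Mean FPKM over the 9 libraries was 11.0 for Rln3, 4.19 for Insl3, 2.36 for Insl6, 0.174 for Rxfp2, 0.0238 for Rln1 and 0.0122 for Rxfp1. Rln3 stood above Insl3 without overlap of libraries on PD14, PD15 and PD16 alike. Insl3 and Insl6 overlapped on PD15, where Insl3 ranged from 2.40 to 6.27 FPKM and Insl6 from 1.84 to 2.80 FPKM. Rln1 and Rxfp1, at the lower end, could not be ordered at this depth. The fit across all genes took those whose day mean exceeded 1 FPKM on PD14, PD15 or PD16, which left 15495 genes and, among the 6, Rln3, Insl3 and Insl6.

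**Figure D1:**
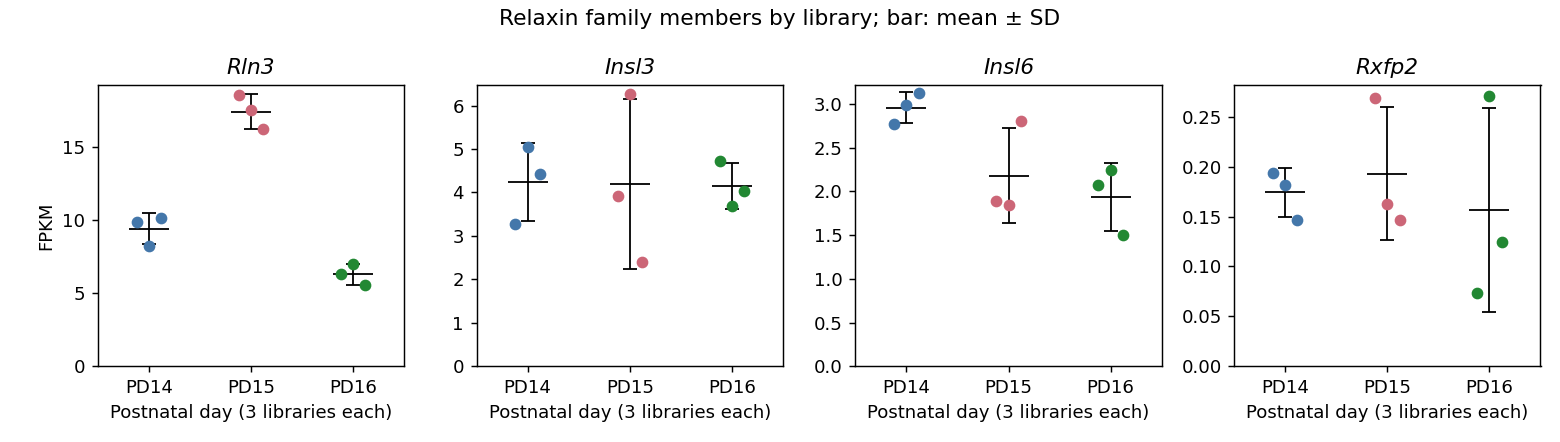
FPKM (vertical axis, linear from 0 and scaled separately for each gene) of Rln3, Insl3, Insl6 and Rxfp2 in the 3 libraries of PD14, PD15 and PD16; points are libraries, and the black bars are the mean and SD. The 3 PD15 libraries of Rln3 sit between 16.2 and 18.5, above all PD14 and PD16 libraries, while the days overlap for Insl3 and Rxfp2.

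Rln3 (ENSMUSG00000045232) encodes relaxin-3, a neuropeptide best known from the nucleus incertus of the brainstem. The gene lies on the minus strand at chr8:84042929-84045000 of GRCm38 and has 2 exons with 634 exon bases in all. As the gene with the clearest difference between days, its promoter is shown. The 229 bases at chr8:84045001-84045229 (minus strand, RefSeq sequence of GRCm38.p6) end just before the annotated start. Capitals mark 2 copies of the nuclear receptor half-site AGGTCA, which begin 115 and 71 bases before the RefSeq start, and a TATAAA that begins 40 bases before it.
Rln3 promoter: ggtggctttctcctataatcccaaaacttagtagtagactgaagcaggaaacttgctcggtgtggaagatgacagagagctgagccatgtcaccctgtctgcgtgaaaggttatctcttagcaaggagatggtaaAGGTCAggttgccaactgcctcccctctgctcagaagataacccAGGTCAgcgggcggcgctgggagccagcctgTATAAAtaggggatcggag

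Both strands were searched in windows of 300 bases, from 250 before to 50 after each RefSeq start. AGGTCA was found in 16.3% of 32851 such promoters, and 1.81% held 2 or more copies, counted on both strands. TATAAA was found in 13.6%. These matches are letters in a window and say nothing about binding.

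Rln3 was highest on PD15 and lowest on PD16. On PD14 the libraries were at 9.85, 8.23 and 10.1 FPKM, from 153, 126 and 131 fragments. On PD15 they were at 18.5, 17.5 and 16.2 FPKM, from 299, 264 and 295 fragments. On PD16 they were at 6.29, 7.02 and 5.58 FPKM, from 95, 101 and 90 fragments. No library of one day reached the range of another, so the order PD15, PD14, PD16 held for every pair of libraries. The means were 9.41 ± 1.03 (SD, n = 3) on PD14, 17.4 ± 1.17 on PD15 and 6.30 ± 0.719 on PD16. The PD15 mean was thus 1.85 times that of PD14 and 2.76 times that of PD16, and the PD14 mean was 1.49 times that of PD16.

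The libraries of a day agreed closely for Rln3. Their coefficient of variation was 11.0% on PD14, 6.71% on PD15 and 11.4% on PD16. Counting error alone, at the mean number of fragments, would give 8.55%, 5.91% and 10.2%. The spread between libraries was therefore little wider than the error of counting fragments. The level placed Rln3 above 74.6% of the genes with a day mean over 1 FPKM on PD15, against 56.5% on PD14 and 43.2% on PD16.

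On the log2(FPKM + 1) scale, the difference of Rln3 was 0.83 for PD15 against PD14, −0.51 for PD16 against PD14 and −1.34 for PD16 against PD15, each with a standard error of 0.0956. Libraries did not overlap in these directions for 10.4% (higher on PD15 than on PD14), 13.5% (lower on PD16 than on PD14) and 9.73% (lower on PD16 than on PD15) of the 15495 genes. Since Rln3 was chosen with such values known, these shares are background and nothing is read from them.

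Over 18 other settings the Rln3 differences were 0.74 to 0.88 for PD15 against PD14, −0.60 to −0.44 for PD16 against PD14 and −1.46 to −1.27 for PD16 against PD15. These ranges include the fits that left out each library in turn.

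**Figure D2:**
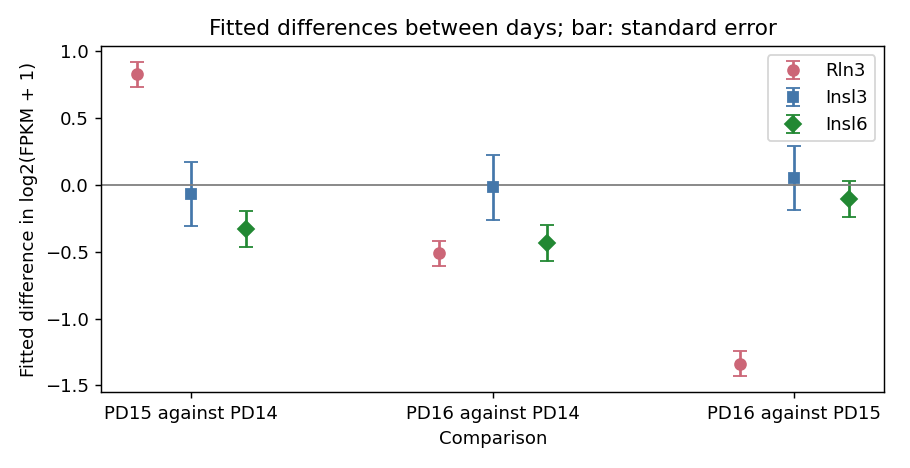
Fitted difference in log2(FPKM + 1) (vertical axis) for Rln3, Insl3 and Insl6 in the 3 comparisons of days (horizontal axis); points are the limma estimates and bars their standard error. Rln3 is at 0.83, −0.51 and −1.34, Insl3 lies within its standard error of 0 in all 3 comparisons, and Insl6 is below 0 in each.

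Oocyte markers were also highest on PD15. The sum of the 12 markers was 1137 to 1398 FPKM on PD14, 1476 to 1585 FPKM on PD15 and 1082 to 1157 FPKM on PD16, so PD15 overlapped neither other day. Of the 12 markers, 10 had a higher fitted level on PD15 than on PD14 and 12 a lower one on PD16 than on PD15, with median log2 differences of 0.20 and −0.31. Over all genes tested the median difference was 0.01 in each comparison. By limma with Benjamini-Hochberg adjustment, Nlrp5, a maternal-effect gene of the oocyte, rose by 0.76 ± 0.125 (SE) from PD14 to PD15 (adjusted p = 0.0377) and fell by 0.72 ± 0.125 from PD15 to PD16 (adjusted p = 0.0439). Zp2, which encodes an egg coat protein, fell by 0.61 ± 0.102 from PD15 to PD16 (adjusted p = 0.0427). These 3 calls (a call is an adjusted p under 0.05) held in 3, 2 and 1 of the 9 fits that left out 1 library, with adjusted p up to 0.135, 0.138 and 0.133 over all alternatives. Of all genes tested, 0.336% were called higher on PD15 than on PD14 and 0.297% lower on PD16 than on PD15.

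Rln3 was therefore also expressed per 1000 FPKM of the summed oocyte markers, a denominator chosen after seeing the data. This ratio was 7.25, 7.23 and 7.25 in the PD14 libraries, 12.1, 11.9 and 10.2 in the PD15 libraries and 5.81, 6.33 and 4.82 in the PD16 libraries. The PD14 ratio had an SD of only 0.0104, although the Rln3 counting error on PD14 was 8.55%. That spread therefore understates the uncertainty of the PD14 ratio. With this summed denominator the days again did not overlap, but the choice of marker matters. For PD15 against PD14 the fitted log2 difference was 0.76 for Nlrp5, near the 0.83 of Rln3, and the median of the 12 markers was 0.20. For PD16 against PD15 it was −0.72 for Nlrp5 and −1.34 for Rln3, and the median was −0.31. The PD15 ratio was 1.57 times that of PD14 and 2.01 times that of PD16, compared with 1.85 and 2.76 for Rln3 FPKM itself. Which ovarian cells carry Rln3 cannot be read from bulk libraries, and the part of the oocyte markers in the result was not tested further.

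Summed FPKM of 5 red blood cell genes was 105 to 147 on PD14 and 46.4 to 63.2 on PD15, and Hba-a1, an alpha-globin gene, fell by 1.35 ± 0.225 (limma, adjusted p = 0.0381). That call held in 2 of the 9 fits that left out 1 library, with an adjusted p up to 0.141. Of all genes tested, 0.342% were called lower on PD15 than on PD14. Summed immune cell markers were higher on PD15, at 21.3 to 25.9 FPKM against 17.8 to 19.1 on PD14. Of the 6 immune markers tested, however, 2 were higher and 4 lower on PD15, with a median log2 difference of −0.02, and none was called (limma), with 2 at an unadjusted p under 0.05. Lyz2, a myeloid lysozyme gene, went from 8.91 to 14.0 FPKM (adjusted p = 0.110). The part of these markers in the Rln3 values was not tested.

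**Figure D3:**
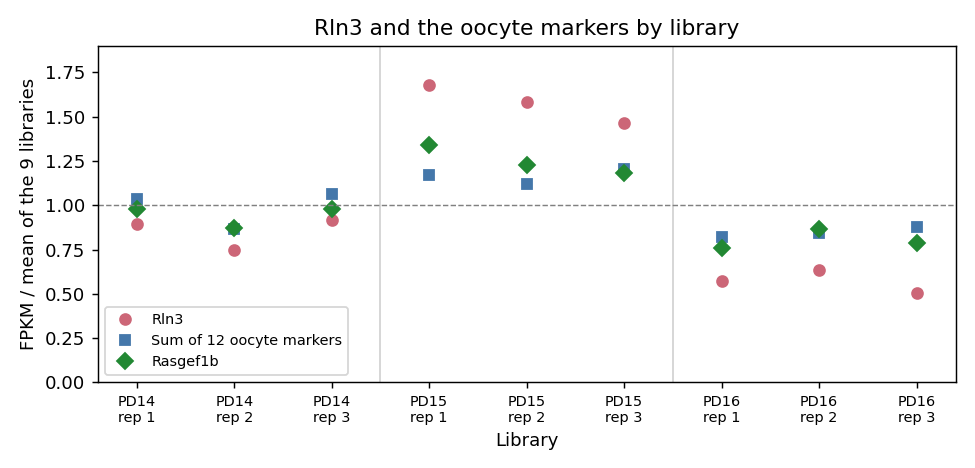
FPKM divided by its mean over the 9 libraries (vertical axis, linear from 0) for Rln3, the sum of 12 oocyte markers and Rasgef1b in each library (horizontal axis). All 3 measures are above 1 in the 3 PD15 libraries and below 1 in the 3 PD16 libraries, and Rln3 spans the widest range. Rasgef1b was picked for its highest correlation with Rln3 over these same 9 libraries, so its likeness to Rln3 follows from that choice.

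Of the genes next to Rln3, Il27ra, a cytokine receptor gene 340 bases beyond the end of Rln3 on the same strand, had mean FPKM of 0.988, 0.850 and 0.949 on PD14, PD15 and PD16. Gm10643, 18561 bases away on the other side, was at 0.770, 0.881 and 0.665, the same order of days as Rln3. Libraries of the days overlapped for both genes.

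Across the 9 libraries, 42 genes had a Pearson correlation above 0.9 with Rln3 on the log2(FPKM + 1) scale. The 9 points are 3 libraries from each of 3 days, so any gene highest on PD15 and lowest on PD16 scores well. The nearest was Rasgef1b, a Ras guanine nucleotide exchange factor gene, with r = 0.987 and means of 8.34, 11.1 and 7.10 FPKM on PD14, PD15 and PD16. Gm15753 followed with r = 0.970 and means of 4.89, 7.70 and 3.96 FPKM. The next was an unnamed transcript of the tables with r = 0.967 and means of 2.55, 3.72 and 1.66 FPKM.

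Insl3 (ENSMUSG00000079019) encodes insulin-like peptide 3, made by theca cells in the ovary and by Leydig cells in the testis, where it drives descent of the gonad. It lies on the plus strand at chr8:71689214-71690575 of GRCm38 and has 2 exons with 623 exon bases. The 212 bases at chr8:71689002-71689213 (plus strand, RefSeq sequence of GRCm38.p6) are shown because Nr5a1, steroidogenic factor 1, is a known activator of the gene. Capitals mark a TCAAGGTC, a site of the kind that factor binds, which begins 138 bases before the RefSeq start.
Insl3 promoter: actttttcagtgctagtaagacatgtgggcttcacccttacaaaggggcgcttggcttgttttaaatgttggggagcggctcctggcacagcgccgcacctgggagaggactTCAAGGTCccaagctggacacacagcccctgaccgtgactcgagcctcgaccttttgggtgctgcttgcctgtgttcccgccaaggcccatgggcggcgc

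TCAAGGTC was found in 1.05% of the 32851 promoters. It overlaps AGGTCA only where an A follows it, which is not the case here. Promoters of Rln1 and Rxfp2 were also searched, and the Rln1 window held a TATAAA 10 bases before the RefSeq start. The cyclic AMP response element TGACGTCA (in 1.79% of promoters) and its half-site TGACG (20.8%) were in none of the 4 windows.

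The level of Insl3 showed no order of days. It was 3.27, 5.05 and 4.41 FPKM in the PD14 libraries, 3.91, 6.27 and 2.40 in the PD15 libraries and 4.72, 3.68 and 4.04 in the PD16 libraries. The highest and the lowest of all 9 values were both from PD15. Means were 4.25 ± 0.899, 4.19 ± 1.95 and 4.14 ± 0.528 FPKM (SD, n = 3). Fitted log2 differences were −0.07, −0.02 and 0.05 for PD15 against PD14, PD16 against PD14 and PD16 against PD15, each with a standard error of 0.241. They took either sign when single libraries were left out. With 43 to 93 fragments per library, counting error would give a coefficient of variation of 12.3% on PD15, whereas the libraries varied by 46.5%. On PD16 the values were 12.7% for both.

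Insl3 shares sequence with Jak3, a tyrosine kinase gene of cytokine receptor signalling that ends at the same base on the same strand. The last exon of Insl3, chr8:71690172-71690575 of GRCm38, is also annotated as an exon of Jak3. It covers 404 bases, which is 64.8% of the Insl3 exon bases and 7.55% of those of Jak3. How fragments in this exon were assigned is not given in the sources used here, so the values of both genes are uncertain. The neighbour on the other side, B3gnt3, lies 181 bases further along on the opposite strand, and the days overlapped for it.

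Jak3 itself was at 1.56, 3.67 and 2.20 FPKM in the PD14 libraries, 5.94, 9.24 and 4.23 on PD15 and 4.16, 3.25 and 3.55 on PD16. All PD15 libraries were above all PD14 and PD16 libraries. Of the 15495 genes tested, 10.4% were higher on PD15 than on PD14 without overlap, and 9.73% lower on PD16 than on PD15. By limma the log2 difference of PD15 against PD14 was 1.09 ± 0.259 (SE) with an adjusted p of 0.103, so Jak3 was not called. PD16 differed from PD15 by −0.63 (adjusted p = 0.307) and from PD14 by 0.46 (adjusted p = 0.323). Across the 9 libraries the correlation of Insl3 and Jak3 was 0.460, and PD15 replicate 2 was the highest library for both genes. Within each day the libraries stood in the same order for both genes, which the correlation over all days does not show. The part of the shared exon in this was not tested.

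**Figure D4:**
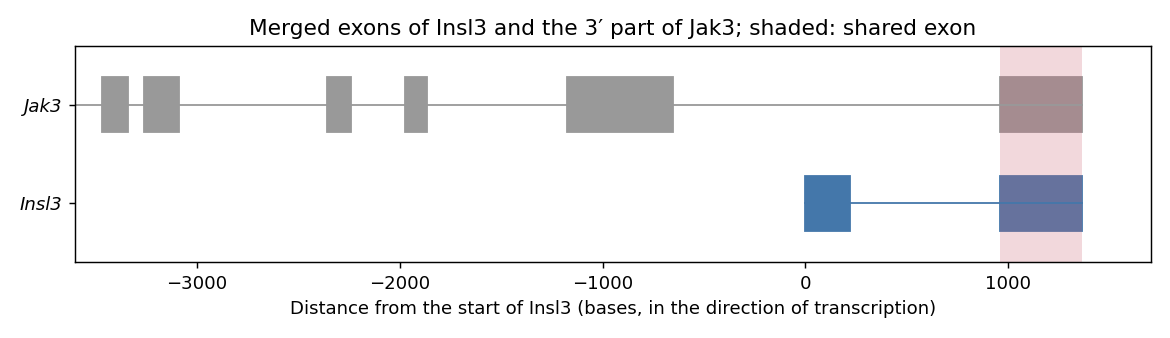
Merged exons (boxes) and introns (lines) of Insl3 and of the 3′ part of Jak3, drawn to scale by distance from the start of Insl3 in bases along the direction of transcription. The shaded exon of 404 bases belongs to both genes, and the first Insl3 exon to Insl3 alone.

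Genes known to regulate Insl3 were present. Of 14 listed regulators 13 were tested, and Nr5a1 stood at 62.0, 55.2 and 51.4 FPKM on PD14, PD15 and PD16. None of the 13 was called for PD15 against PD14 by limma, with 4 at an unadjusted p under 0.05. Klf6, a zinc finger factor gene, rose by 0.40 ± 0.0729 from PD15 to PD16 (limma, adjusted p = 0.0494). The call held in 1 of the 9 fits that left out 1 library, with an adjusted p up to 0.146 over all alternatives. Of all genes tested, 0.432% were called higher on PD16 than on PD15. Median differences of the list were −0.05, 0.02 and 0.08 in the order of comparisons above.

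The theca and interstitial markers summed to 1959 to 2595 FPKM on PD14, 1466 to 2079 on PD15 and 1473 to 1938 on PD16. The sum on PD16 lay below that on PD14 without overlap, but 7 of the 14 markers were higher and 7 lower, with a median log2 difference of −0.08. Fdxr, which encodes ferredoxin reductase of steroid synthesis, fell by 0.30 ± 0.0661 from PD14 to PD16 (limma, adjusted p = 0.0411). That call held in 2 of the 9 fits that left out 1 library, with an adjusted p up to 0.120. Of all genes tested, 1.89% were called lower on PD16 than on PD14. Hsd3b1, a steroidogenic enzyme and the most abundant of these markers, was at 1785, 1291 and 1273 FPKM on the 3 days, with adjusted p of 0.345 and 0.219 for PD15 and PD16 against PD14.

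Genes whose libraries varied most like Insl3 were Tpra1 (r = 0.952), Pltp (r = 0.925) and Stk11ip (r = 0.923). Pltp, which encodes phospholipid transfer protein, had nearly level day means of 10.6, 10.6 and 10.5 FPKM.

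Insl6 (ENSMUSG00000050957) encodes a relaxin-like peptide best known from male germ cells, with no settled receptor. It lies on the minus strand at chr19:29321344-29325356, in 2 exons with 708 exon bases, 5814 bases from Rln1. Its level was 2.77, 2.98 and 3.12 FPKM in the PD14 libraries, 1.89, 1.84 and 2.80 on PD15 and 2.08, 2.24 and 1.50 on PD16. All PD16 libraries were below all PD14 libraries, while PD15 overlapped both. The same held between PD16 and PD14 for 13.5% of the 15495 genes tested, so nothing is read from it. Means were 2.96 ± 0.178, 2.18 ± 0.543 and 1.94 ± 0.389 FPKM (SD, n = 3), so the PD14 mean was 1.53 times that of PD16.

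The fitted log2 differences of Insl6 were −0.33 for PD15 against PD14, −0.44 for PD16 against PD14 and −0.11 for PD16 against PD15, each with a standard error of 0.135. With 27 to 57 fragments per library, the PD16 coefficient of variation of 20.1% stood beside a counting error of 17.5%. On PD14 the libraries varied by 6.03%, less than the counting error of 14.4%, so that spread understates the uncertainty of the PD14 mean. Summed oviduct and epithelial markers were also lower on PD16 than on PD14, at 35.3 to 39.2 FPKM against 44.3 to 52.8. Of the 4 tested, 2 were lower (the keratin genes Krt8 and Krt18) and 2 higher. Summed theca markers were lower too, with the even split of markers given above. Their part in the Insl6 values was not tested.

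Jak2, a tyrosine kinase gene 8264 bases from Insl6, was at 18.6, 19.9 and 19.3 FPKM on PD14, PD15 and PD16. Its adjusted p in limma was 0.443, 0.589 and 0.798 in the 3 comparisons. The genes most like Insl6 across the 9 libraries were Ptn (r = 0.953), Selenom (r = 0.945) and Haus7 (r = 0.938). Ptn, which encodes the growth factor pleiotrophin, had means of 8.68, 6.89 and 6.07 FPKM.

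Rln1 (ENSMUSG00000039097) encodes relaxin, the hormone of pregnancy. It lies on the minus strand at chr19:29331170-29334670, and its 3501 exon bases drew 18 fragments in the 9 libraries together. Single libraries held 0 to 4 fragments, 3 libraries held none, and the highest was at 0.0561 FPKM. A count of 0 allows up to 3 fragments, which corresponds to 0.0298 to 0.0421 FPKM for this gene depending on the library, for counting error only. Rln1 exceeded 3 fragments in 2 libraries, both from PD14, and no difference between days was detectable at this depth. Plgrkt, the next gene on the far side of Rln1, was at 6.96, 6.96 and 6.83 FPKM.

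Of the receptors, Rxfp2 (ENSMUSG00000053368), the receptor for insulin-like peptide 3, was read in every library at a low level. It lies on the plus strand at chr5:150018675-150082184 with 19 merged exons. Its level was 0.194, 0.182 and 0.147 FPKM in the PD14 libraries, 0.269, 0.162 and 0.147 on PD15 and 0.0738, 0.271 and 0.124 on PD16. The highest and the lowest library were both from PD16, and all days overlapped. Means were 0.174 ± 0.0244, 0.193 ± 0.0666 and 0.156 ± 0.102 FPKM (SD, n = 3), from 10 to 39 fragments per library. The gene fell short of the filter and was not tested. An antisense gene, Gm42557, overlaps it, and the sources used here do not say whether strand was used in counting. Gm42557 drew 1 fragment in all, in PD15 replicate 3 (0.0598 FPKM), and was listed at 0 in the other 8 libraries.

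Rxfp1 (ENSMUSG00000034009), the relaxin receptor, lies on the minus strand at chr3:79641611-79737880 with 18 merged exons. Its 10052 exon bases drew 26 fragments in all. Single libraries held 0 to 7 fragments, and 4 of the 9 exceeded 3. The highest library was at 0.0284 FPKM, from PD14, and the days overlapped. Its level therefore stayed at or near the limit set by a count of 0, and no fold between days is given.

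Of the other family genes, Insl5, an intestinal peptide gene, drew 14 fragments, with 7 of them in 1 PD14 library. Rxfp3, the relaxin-3 receptor, drew 7 fragments in all, and 6 of the 9 libraries held none. Rxfp4, the Insl5 receptor, drew 1 fragment in all. Mean FPKM on PD15 was thus 17.4 for Rln3 and 0.0170 for Rxfp3, whose highest single library was at 0.0326 FPKM.

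**Figure D5:**
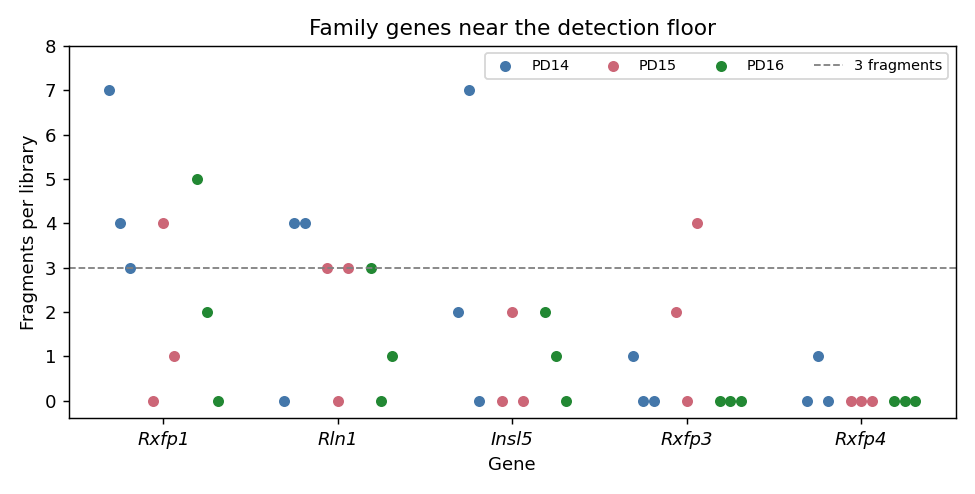
Fragments per library (vertical axis, linear) for Rxfp1, Rln1, Insl5, Rxfp3 and Rxfp4 in the 3 libraries of each day; the dashed line marks 3 fragments, the limit that a count of 0 allows. No library exceeds 7 fragments, and no gene has a day with all libraries above the line.

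Genes of the wider pathway were read from 6 lists with 100 distinct genes, of which 83 were tested. For PD15 against PD14 none of the 83 was called by limma, beside 0.336% of all genes called higher and 0.342% lower. For PD16 against PD14, 3 rose and 2 fell, beside 2.36% of all genes called higher and 1.89% lower. For PD16 against PD15, 2 rose and none fell, beside 0.432% higher and 0.297% lower. In the same order, 12, 26 and 14 of the 83 had an unadjusted p under 0.05 in limma. Over all 15495 genes tested these counts were 2281, 3531 and 2189, which are also the background for the unadjusted counts of single lists. Median log2 differences of the 83 genes were −0.06, −0.01 and 0.05, against 0.01 for all genes in each comparison. Without PD14 replicate 1, PD14 replicate 3 or PD16 replicate 1, the number of calls for PD16 against PD14 was 2, 1 and 1 in place of 5. For PD16 against PD15 it was 1 without PD14 replicate 1. Without PD15 replicate 3 both genes that rose lost their call and 1 other listed gene was called lower. No listed gene was called without PD14 replicate 3, PD15 replicate 1, PD15 replicate 2 or any single PD16 library.

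Among receptors built like Rxfp1 and Rxfp2, 4 of 6 were tested and none was called in any comparison by limma, with 1, 2 and 1 at an unadjusted p under 0.05. Fshr, the follicle-stimulating hormone receptor gene, was at 14.2, 12.8 and 17.9 FPKM on PD14, PD15 and PD16. Lhcgr, the luteinizing hormone receptor gene, was at 14.4, 10.4 and 9.78 FPKM. Both gonadotropin receptor genes were thus above Rxfp2, at 0.156 to 0.193 FPKM, on every day.

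Of 37 genes of G protein and cyclic AMP signalling, 33 were tested, and 1 rose and 1 fell between PD14 and PD16. Adcy9, an adenylyl cyclase gene, rose from 7.65 ± 0.360 to 10.7 ± 0.487 FPKM, a log2 difference of 0.44 ± 0.0638 (SE; limma, adjusted p = 0.0129). Pde8a, which encodes a phosphodiesterase that degrades cyclic AMP, fell from 16.4 ± 0.373 to 12.9 ± 0.619 FPKM, by 0.32 ± 0.0530 (adjusted p = 0.0177). Both calls held in 7 of the 9 fits that left out 1 library. The Adcy9 call was lost without PD14 replicate 3 or PD16 replicate 1, with adjusted p up to 0.0548. The Pde8a call was lost without PD14 replicate 1 or PD14 replicate 3, with adjusted p up to 0.0704 over all alternatives. No gene of this list was called for PD15 against PD14 or for PD16 against PD15 (limma), with 3 and 6 at an unadjusted p under 0.05. The regulatory subunit genes Prkar2b and Prkar1a were the most abundant, with Prkar2b at 237, 194 and 219 FPKM.

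Of 12 genes that process prohormones 9 were tested and none was called (limma), with 0, 1 and 1 at an unadjusted p under 0.05 in the order of comparisons above. Cpe, a carboxypeptidase gene, was at 253, 238 and 251 FPKM on PD14, PD15 and PD16. Pcsk6, a proprotein convertase gene, was at 62.8, 65.5 and 50.9 FPKM. Both stood above Rln3, Insl3 and Insl6 in FPKM on all 3 days.

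Of 28 genes known to respond to relaxin in other tissues, 24 were tested. None was called for PD15 against PD14 (limma), with 4 at an unadjusted p under 0.05. Nos2, the inducible nitric oxide synthase gene, was at 18.4, 24.3 and 22.4 FPKM in the PD14 libraries, 23.9, 25.6 and 22.5 on PD15 and 37.3, 38.1 and 32.9 on PD16. Its PD16 libraries were above all others, and it rose by 0.71 ± 0.101 against PD14 (limma, adjusted p = 0.0117) and by 0.57 ± 0.101 against PD15 (adjusted p = 0.0462). The first call held in 8 and the second in 2 of the 9 fits that left out 1 library, with adjusted p up to 0.0512 and 0.143 over all alternatives. Without PD16 replicate 1 neither held.

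Smad3, a transcription factor gene of TGF-beta signalling, fell from 49.3 ± 3.44 to 36.7 ± 2.81 FPKM between PD14 and PD16, by 0.42 ± 0.0856 (SE; limma, adjusted p = 0.0316). The call held in 3 of the 9 fits that left out 1 library, with an adjusted p up to 0.105. Matrix and contractile genes of the list were abundant and not called. Acta2, smooth muscle actin, was at 259, 246 and 297 FPKM, and Col3a1, a fibrillar collagen gene, at 186, 156 and 167 FPKM.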

How the data were processed

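RNA of mouse ovaries was sequenced as 9 libraries, 3 for each of PD14, PD15 and PD16. Per the labels, libraries were made with the NEBNext Ultra kit, and the submitters' processing notes name HISAT2 2.0.5 and the mm10 build. The counter and annotation are not given in the sources used here. The authors deposited FPKM per gene, 1 table for each library, used as deposited. In each library 95.1% to 95.8% of low values were whole multiples (tolerance 0.01) of the step of 1 fragment, which gave depth and fragments per gene. Intervals and limits cover counting error only.

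Values were analysed as log2(FPKM + 1), so differences of low genes are understated. Genes with mean FPKM above 1 on at least 1 day entered limma 3.58.1 (R 4.3.3) with an intensity trend and all 9 libraries, without a replicate block. Calls used a Benjamini-Hochberg adjusted p under 0.05, and the procedure was tested on simulated data. Coordinates are from GENCODE M21 (GRCm38), and promoters from RefSeq matched 4 of the 6 members by symbol (Rln1, Rln3, Insl3 and Rxfp2).

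Members and lists were chosen with earlier results of these data known. Named were members, other family genes, overlapping and adjacent genes, list genes called or the 2 most abundant, and the 3 genes most correlated with each fitted member. The values of 1 listed gene are not reported here. Alternatives changed the pseudocount, filter, scaling, trend, robustness, block and the libraries used. The replicate numbers were not treated as pairs. Deviations from day means correlated above 0.1 in 2 of 9 pairs with the same number and in 6 of 18 with different numbers.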

Additional observations from a re-analysis of the deposited data

How the results depend on the processing

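The log2 differences of Rln3, Insl3 and Insl6 moved by less than the spread between libraries under every alternative run, and those of Insl3 and, for PD16 against PD15, of Insl6 took either sign. Leaving out 1 library gave ranges for Rln3 of 0.74 to 0.88 (PD15 against PD14), −0.60 to −0.44 (PD16 against PD14) and −1.41 to −1.27 (PD16 against PD15), for Insl3 of −0.35 to 0.20, −0.16 to 0.09 and −0.22 to 0.33, and for Insl6 of −0.47 to −0.26, −0.51 to −0.32 and −0.18 to 0.03. The number of genes called was 105, 659 and 113 in the same order, and ranged from 3 to 92, 92 to 660 and 14 to 125 when 1 library was left out. Pathway calls of 0, 5 and 2 ranged from 0 to 0, 1 to 6 and 0 to 2. With no filter on low values 29, 172 and 24 genes were called, and with a mean above 1 on every day 58 for PD15 against PD14. Pathway calls for PD16 against PD15 were 0 with no filter and with no intensity trend, and 1 with the stricter filter, median-ratio scaling or quantile normalization, which also gave 1 for PD15 against PD14. The cause was not tested.

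With the replicate block 24, 227 and 56 genes were called, and pathway calls were 3 for PD16 against PD14 and 0 for PD16 against PD15. Same-number libraries correlated from −0.214 to 0.159 in their deviations, and 2 of 9 libraries correlated best with their own number. No pairing was seen in these values, but they cannot exclude one that the labels do not state.

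Depth limits Rln1, Rxfp1, Insl5, Rxfp3 and Rxfp4, which were at or near 3 fragments per library. With 3 libraries a day, small differences of Insl3 and Rxfp2 cannot be told from their spread, and the exon shared with Jak3 leaves Insl3 uncertain.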

Other observations

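Other marker lists, read with the same fit, were described by counts. Of 12 granulosa cell markers, 1 rose and 2 fell between PD14 and PD16 (limma), beside 2.36% of all genes called higher and 1.89% lower. Those shares are the background for every marker call between these 2 days in this section. Amh, which encodes anti-Müllerian hormone of growing follicles, rose by 0.47 ± 0.0836 (SE; adjusted p = 0.0223) and held in 6 of the 9 fits that left out 1 library. Cyp19a1, the aromatase gene, fell by 0.84 ± 0.172 (adjusted p = 0.0316) and held in 4. Kitl, the ligand of the oocyte receptor Kit, fell by 0.50 ± 0.120 (adjusted p = 0.0494) and held in 1. Bmp15, an oocyte growth factor gene, rose by 0.39 ± 0.0811 (adjusted p = 0.0331) and held in 3. Over all alternatives the adjusted p of these genes reached 0.0848 (Amh) to 0.132 (Kitl).

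In the same comparison the epithelial keratin genes Krt18 and Krt8 fell by 0.45 ± 0.0641 (adjusted p = 0.0121) and 0.48 ± 0.0843 (adjusted p = 0.0222), and held in 8 and 6 of the 9 fits. Lyz2, a myeloid lysozyme gene, rose by 0.74 ± 0.144 (adjusted p = 0.0286) and held in 4. Cnn1, a smooth muscle gene, rose by 0.61 ± 0.129 (adjusted p = 0.0348) and held in 3, and Tie1, an endothelial receptor gene, fell by 0.25 ± 0.0581 (adjusted p = 0.0458) and held in none. Highest adjusted p over all alternatives were 0.0510 for Krt18, 0.0825 for Krt8, 0.0993 for Lyz2, 0.0980 for Cnn1 and 0.136 for Tie1. None of 8 stromal markers was called in any comparison, with 3, 0 and 2 at an unadjusted p under 0.05.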
